A study of Mus musculus with 8 samples.

Results

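The mitochondrial carriers of the SLC25 family were examined on 8 Affymetrix arrays of sorted mouse bone marrow cells. The genes were taken as all probe sets with a single gene symbol beginning with Slc25a in the platform annotation, and where a gene had several, the one with the largest average log2 value across the 8 arrays stood for it. This gave 44 genes out of 18193, read by 93 of 34945 single-symbol probe sets. The comparison asks which carriers differ between sorted leukaemic cells labelled L-GMP and sorted normal cells labelled GMP.

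L-GMPs came from the bone marrow of mice with leukaemia and carried the genotype label HoxA9+Meis1 AML (4 arrays). GMPs came from normal mouse bone marrow (4 arrays). GMP is the usual abbreviation of the granulocyte-macrophage progenitor, the committed marrow cell that gives rise to neutrophils and monocytes, and AML is acute myeloid leukaemia. Both groups were sorted by flow cytometry and carry the replicate letters A to D. The labels used here do not give strain, age, sorting antigens, how the leukaemia was started, or whether each array was a separate animal, so the p-values cover the spread among these arrays alone, and that spread may be technical.

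Proteins of the SLC25 family sit mostly in the inner mitochondrial membrane and exchange solutes between the cytosol and the matrix. They bring in ADP, phosphate, carboxylates, amino acids, acylcarnitines, iron and cofactors, and send out ATP and citrate, so that each carrier couples a cytosolic pathway to a mitochondrial one. Blood cell precursors depend on several of them for energy supply, for haem synthesis and for nucleotide precursors.

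Values are log2 of the deposited intensities, and every difference is L-GMP minus GMP on that scale. Called means an adjusted p under 0.05 by limma with Benjamini-Hochberg adjustment over all 18193 genes. By this rule 3 carriers fell in L-GMPs (Slc25a23, Slc25a37 and Slc25a20) and 0 rose. The 3 of 44 (6.82%) stand beside 12.1% of all genes called in either direction, 7.27% called lower and 4.78% called higher. At an unadjusted p under 0.05 there were 6 lower and 2 higher carriers. Of all calls on the array, 39.7% were higher in L-GMPs, against 70.1% after each array was centred on its median and 49.5% after quantile normalization. Centring used the median of all probe sets other than controls, not that of the 18193 genes tested. It moved the median difference of the tested genes to 0.15, against 0.01 in the deposited values and 0.04 after quantile normalization. Small differences therefore hold only relative to the scaling used. In sorted cell populations, fewer cells of a type and less RNA per cell cannot be told apart.

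Of the genes in the genotype label, Hoxa9 rose by 4.82 in one probe set (11.6 ± 0.74 in L-GMPs and 6.79 ± 0.04 in GMPs) and fell by 6.66 in the other (2.76 ± 0.16 in L-GMPs and 9.42 ± 0.26 in GMPs; SD, n = 4 each). Meis1 fell in all its 3 probe sets, by 1.47 to 3.05. Whether these probe sets can read RNA from an introduced copy is unknown, so the labels are only partly checked by these genes. Markers of GMPs and of primary granules were present in both groups, and 4 of 11 measured (Kit, Mpo, Elane and Prtn3) were called lower. The summed intensity of the 11 was 29372 to 33271 on L-GMP arrays and 42351 to 45936 on GMP arrays. Most of each sum came from the granule genes Mpo, Ctsg, Elane and Prtn3. Cebpa, Fcgr2b and Fcgr3 differed by 0.14 (SE 0.16), 0.11 (SE 0.11) and 0.01 (SE 0.12), none called. Csf1r, Ctsg and Ms4a3 differed by -0.24 (SE 0.33), -0.15 (SE 0.09) and -0.78 (SE 0.25), none called. Elane and Prtn3, granule proteases, fell by 1.75 (SE 0.37, adjusted p = 0.0127) and 0.84 (SE 0.18, adjusted p = 0.0129), both by limma. Kit, the stem cell factor receptor, averaged 8.24 ± 0.23 in L-GMPs and 9.19 ± 0.16 in GMPs (SD, n = 4 each). Cd34 averaged 9.51 ± 0.56 in L-GMPs and 9.71 ± 0.25 in GMPs, and Mpo, the granule enzyme myeloperoxidase, averaged 13.2 ± 0.09 in L-GMPs and 13.6 ± 0.04 in GMPs (SD, n = 4 each). Markers of other cells differed between the groups. Of 9 eosinophil, basophil and mast cell markers 7 were called lower, with a summed intensity of 643 to 1531 on L-GMP arrays and 4459 to 11007 on GMP arrays. Of 8 monocyte and macrophage markers measured 6 were called higher, with sums of 10310 to 14411 in L-GMPs and 4864 to 5545 in GMPs. The 7 neutrophil markers measured had sums of 226 to 1211 in L-GMPs and 822 to 4209 in GMPs, and 2 were called lower. For megakaryocyte markers 3 of 5 were called lower, with sums of 145 to 210 in L-GMPs and 420 to 1909 in GMPs, while 0 of 5 B cell and 0 of 5 T and NK cell markers were called. The part of these cells in the carrier values was not tested. The Gapdh controls at the 3' and 5' ends of the transcript differed by 1.24 to 1.55 on L-GMP arrays. On GMP arrays they differed by 1.46 to 1.76 other than on replicate D, where they differed by 2.74. Since the labels name a whole transcript kit, how far these differences read RNA integrity is unknown.

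The promoters of the carriers that fell are shown, so that the sequence before each start site can be read beside the values; Slc25a37 is named only. They are the first entry for each gene from RefSeq on GRCm38.p6, 5′ to 3′ along the gene, from 250 bases before to 50 bases after the start site. Capitals mark matches, on either strand, to the MEIS motif TGACAG, the GATA motifs AGATAA and TGATAA, the E-box CACGTG, the ETS motif CCGGAAG and CCAAT. The motifs as written do not overlap each other in these sequences.
Slc25a23, chr17:57059814-57060113, minus strand: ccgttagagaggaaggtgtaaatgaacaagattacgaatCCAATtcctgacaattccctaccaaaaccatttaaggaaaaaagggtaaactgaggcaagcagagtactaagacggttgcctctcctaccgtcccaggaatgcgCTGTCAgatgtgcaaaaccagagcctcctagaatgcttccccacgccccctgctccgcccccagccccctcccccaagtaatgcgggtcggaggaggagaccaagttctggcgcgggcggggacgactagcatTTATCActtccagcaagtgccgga
Slc25a20, chr9:108661886-108662185, plus strand: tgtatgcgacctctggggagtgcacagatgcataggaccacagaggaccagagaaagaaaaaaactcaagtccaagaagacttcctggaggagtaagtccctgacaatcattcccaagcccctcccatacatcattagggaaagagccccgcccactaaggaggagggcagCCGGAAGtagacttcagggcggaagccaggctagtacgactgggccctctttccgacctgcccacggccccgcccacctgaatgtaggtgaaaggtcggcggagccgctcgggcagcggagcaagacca
The table lists 2 start sites for Slc25a23, the other 21 bases further along the gene, and positions are from the first. In the printed Slc25a23 promoter the GATA match lay with its first base at position 27 after the start site, the MEIS match at -107 and the CCAAT at -211. The Slc25a20 promoter held the ETS match at -79. Over 32851 promoters in the RefSeq table, 19.2% held the MEIS motif, 18.6% a GATA motif, 7.15% the E-box, 8.86% the ETS motif and 37.4% CCAAT. The 43 promoters listed for 34 of the 44 carriers, some with several start sites per gene, held them in 8, 6, 8, 7 and 21 cases. A match is a run of letters, not a bound site.

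Among the carriers the largest difference was in Slc25a23, which encodes a calcium-regulated carrier that exchanges ATP-Mg for phosphate. Its log2 intensity was 4.44, 5.07, 4.11 and 3.53 in L-GMP replicates A to D, against 6.31, 5.75, 5.82 and 5.43 in GMP replicates A to D. Every L-GMP array lay below every GMP array, with replicate B the highest of the L-GMPs and replicate A the highest of the GMPs. Slc25a23 fell by 1.54 (SE 0.29, 2.91-fold, adjusted p = 0.0066 by limma), from one probe set. Its L-GMP replicate D value lies below the lower quartile of that array (3.69), which leaves the size of the difference uncertain. The call held under every alternative in which the gene was tested, with differences of -1.94 to -1.29. The filter that removed the dimmest 50% of genes removed Slc25a23.

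The other ATP-Mg/phosphate carriers were not called in their brightest probe set. Slc25a24 measured 7.50, 7.51, 8.24 and 7.60 in L-GMPs and 8.14, 8.41, 8.11 and 8.55 in GMPs. L-GMP replicate C lay among the GMP arrays and the other L-GMP arrays lay below them. The difference was -0.59 (SE 0.18, adjusted p = 0.058 by limma) and was called without L-GMP replicate C (-0.76, adjusted p = 0.00703). The dimmer Slc25a24 probe set, tested over all probe sets, fell by 0.91 (SE 0.20, adjusted p = 0.014), with values of 3.91 to 4.86 in L-GMPs and 4.94 to 5.59 in GMPs that did not overlap. In contrast Slc25a25 differed by 0.21 (SE 0.11) and Slc25a41, a shorter relative, by 0.08 (SE 0.12), neither called. Within arrays, Slc25a23 minus Slc25a25 averaged -2.03 ± 0.60 in L-GMPs and -0.27 ± 0.29 in GMPs (SD, n = 4 each), a pair chosen after its values were seen and given with no test. Those within-array differences ran from -2.66 to -1.30 in L-GMPs and from -0.49 to 0.13 in GMPs. For Slc25a23 minus Slc25a24 the groups overlapped, at -4.13 to -2.44 in L-GMPs and -3.12 to -1.82 in GMPs.

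**Figure D1:**
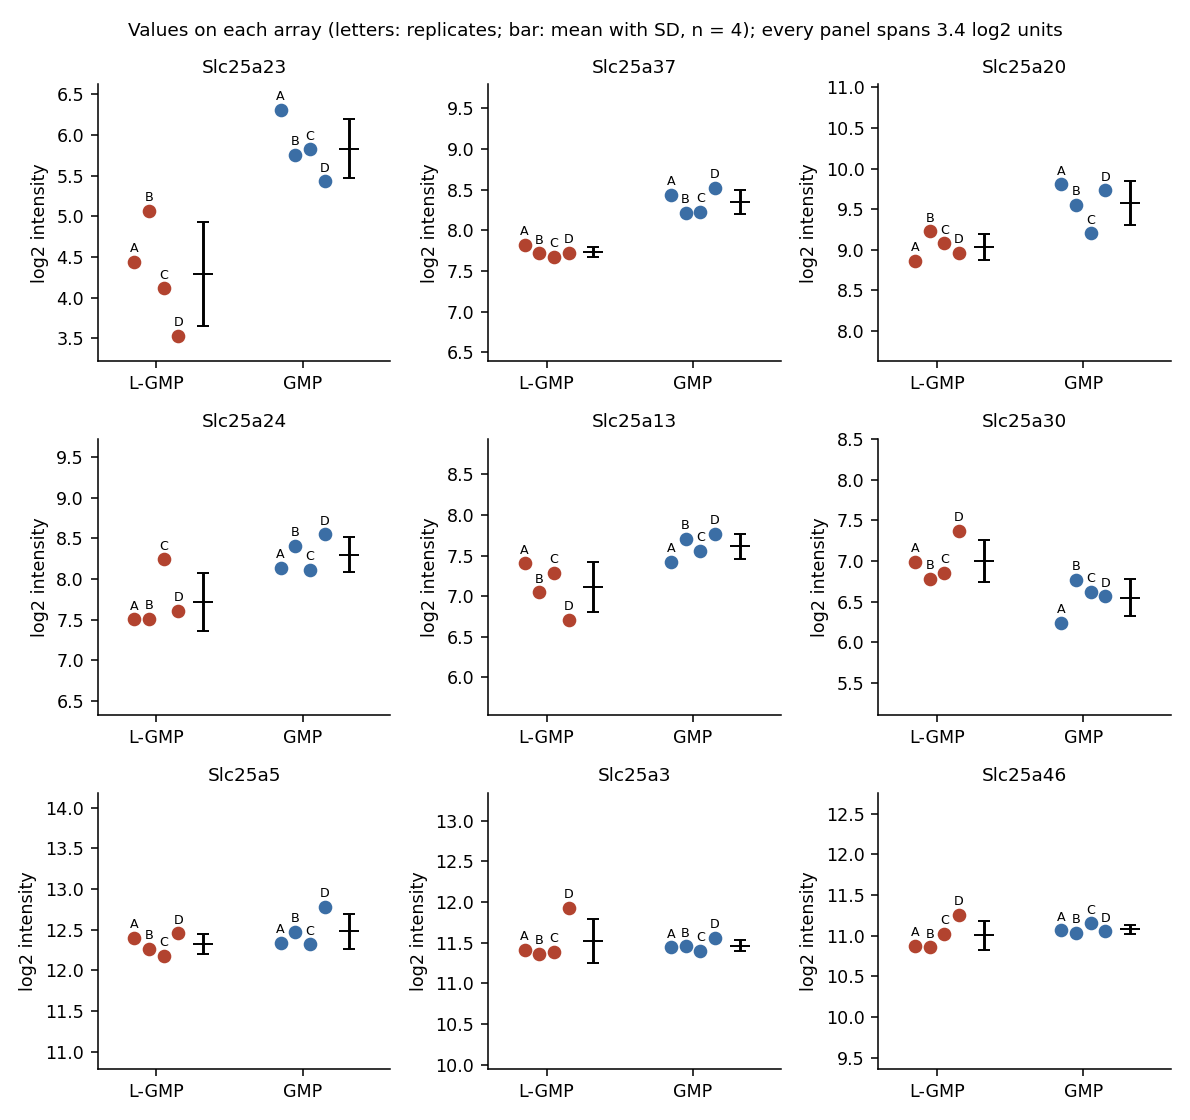
Log2 intensity (y axis, 3.4 units in every panel) of 9 carriers on each L-GMP array (left, red) and GMP array (right, blue), with replicate letters and, beside each group, the mean and SD (n = 4). The groups do not overlap for Slc25a23, Slc25a37, Slc25a13 and Slc25a30, the last 2 narrowly and not called. They overlap for Slc25a20, Slc25a24, Slc25a5, Slc25a3 and Slc25a46.

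The ADP/ATP exchangers and the phosphate carrier supply the ATP synthase and did not differ by a called amount. Slc25a5, the exchanger of proliferating cells, measured 12.40, 12.27, 12.18 and 12.46 in L-GMPs and 12.34, 12.47, 12.32 and 12.78 in GMPs. The groups overlapped, with a difference of -0.15 (SE 0.13, 95% interval -0.43 to 0.13). The 8 probe sets of Slc25a5 differed by -0.15 to 0.10 and 0 were called. Slc25a4, the exchanger of muscle and heart, differed by 0.11 (SE 0.09, interval -0.10 to 0.31). Slc25a31, the exchanger of the testis, lay below the 10th percentile of every array, at 2.24 to 2.36 in L-GMPs and 2.28 to 2.39 in GMPs. Slc25a3, which brings phosphate into the matrix, measured 11.42, 11.36, 11.38 and 11.93 in L-GMPs and 11.44, 11.46, 11.40 and 11.56 in GMPs. Replicate D was the highest of both groups for Slc25a3, and the difference was 0.06 (SE 0.14). A dimmer Slc25a3 probe set differed by 0.56 (SE 0.19, adjusted p = 0.081 over all probe sets), which was not called although the groups did not overlap.

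Of the iron carriers, one fell. Slc25a37 is mitoferrin 1, the importer of iron for haem and iron-sulphur cluster synthesis in developing red cells. It measured 7.82, 7.72, 7.67 and 7.72 in L-GMPs, against 8.43, 8.21, 8.23 and 8.52 in GMPs. The L-GMP arrays were tight and all lay below the GMP arrays. Slc25a37 fell by 0.62 (SE 0.10, 1.53-fold, adjusted p = 0.00352 by limma), from 1 probe set. The call held under all 18 alternatives, with differences of -0.66 to -0.47. Averaging probe sets, testing every probe set and filtering dim genes could not change the values of this gene. Slc25a28, mitoferrin 2, which serves most other tissues, differed by 0.00 (SE 0.11, interval -0.24 to 0.24). Slc25a37 minus Slc25a28 ran from -0.30 to 0.26 within L-GMP arrays and from 0.49 to 0.84 within GMP arrays, a pair chosen after its values were seen and given with no test.

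Of 10 erythroid markers measured 2 (Gata1 and Car1) were called lower, 0 higher and 8 were not called in the deposited values, with a median of -0.33. Over all genes 4.78% were called higher and 7.27% lower. The summed intensity of the 10 markers was 1080 to 1388 in L-GMPs and 1503 to 1835 in GMPs. Most of each sum came from Tfrc, the transferrin receptor. Tfrc measured 9.75 to 10.13 in L-GMPs and 10.17 to 10.54 in GMPs and was not called (adjusted p = 0.0676 by limma). Car1 measured 3.42 to 3.80 in L-GMPs and 4.35 to 7.23 in GMPs, with GMP replicate A highest. Gata1, the erythroid and megakaryocytic transcription factor, measured 4.32 to 4.89 in L-GMPs and 6.06 to 6.28 in GMPs. Ermap, Klf1, Alas2 and Epor differed by -0.70 (SE 0.33), -0.44 (SE 0.17), -0.27 (SE 0.19) and -0.23 (SE 0.19), none called. The Ermap groups did not overlap, though L-GMP replicate C and GMP replicate D nearly met. Hba-a1, an alpha globin gene, lay below the median of every array, at 4.33 to 4.75 in L-GMPs and 4.43 to 4.78 in GMPs, and Slc4a1, the red cell anion exchanger, differed by 0.01 (SE 0.09). Rhd, a red cell blood group protein, went the other way, by 0.43 (SE 0.13, adjusted p = 0.0534 by limma), and was called higher after centring on the median and after quantile normalization. Their part in the Slc25a37 value was not tested. The glycine carrier Slc25a38, needed for haem synthesis, differed by -0.17 (SE 0.13), and the glutathione carrier Slc25a39 and its relative Slc25a40 by -0.14 (SE 0.18) and -0.11 (SE 0.16), none called.

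Slc25a20 carries acylcarnitines into the matrix for fatty acid oxidation. It measured 8.86, 9.23, 9.08 and 8.96 in L-GMPs, against 9.80, 9.55, 9.20 and 9.73 in GMPs. L-GMP replicate B and GMP replicate C overlapped by a small margin and the other arrays were separate. Slc25a20 fell by 0.54 (SE 0.14, 1.45-fold, adjusted p = 0.0354 by limma). The call was not firm: it was lost after centring on the median (-0.40, adjusted p = 0.0981) and when any array other than L-GMP replicate B or GMP replicate C was left out (adjusted p 0.0671 to 0.102). The dimmer Slc25a20 probe set differed by -0.39 (SE 0.12, adjusted p = 0.0579 over all probe sets) and was not called, although its groups did not overlap. Of 9 measured genes of the carnitine shuttle and fatty acid oxidation, 0 were called, and all differences lay between -0.84 and -0.07, with a median of -0.25. After centring they lay between -0.70 and 0.07 with 0 called, and after quantile normalization 2 were called lower. Cpt2, the inner-membrane carnitine palmitoyltransferase, differed by -0.51 (SE 0.16, adjusted p = 0.0601) and Cpt1a, its outer-membrane counterpart, by -0.84 (SE 0.27, adjusted p = 0.0721), both by limma.

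Of the carboxylate carriers 0 of 3 were called. The citrate carrier Slc25a1 differed by -0.15 (SE 0.11), the dicarboxylate carrier Slc25a10 by -0.07 (SE 0.11) and the oxoglutarate-malate carrier Slc25a11 by -0.02 (SE 0.15), and the 95% interval of each lay within 1.5-fold. Of the aspartate, glutamate and branched-chain amino acid carriers 0 of 5 were called. Slc25a13 (citrin), a calcium-regulated aspartate-glutamate exchanger, measured 7.41, 7.05, 7.29 and 6.71 in L-GMPs and 7.43, 7.71, 7.56 and 7.77 in GMPs. The groups did not overlap, but L-GMP replicate A and GMP replicate A were close, and the difference of -0.50 (SE 0.16, adjusted p = 0.0612 by limma) was not called. It was called without L-GMP replicate A (-0.60, adjusted p = 0.0427). Slc25a12 (aralar), the related exchanger, differed by -0.23 (SE 0.16), or by -0.07 without L-GMP replicate D, and the glutamate carriers Slc25a18 and Slc25a22 by -0.09 (SE 0.15) and 0.00 (SE 0.16). The branched-chain amino acid carrier Slc25a44 differed by -0.11 (SE 0.16).

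The ornithine carriers link the cytosolic and mitochondrial steps of the urea cycle in the liver. Slc25a15 differed by 0.05 (SE 0.10, interval -0.16 to 0.27), and the carrier of basic amino acids Slc25a29 by 0.11 (SE 0.10). Slc25a2, a second ornithine carrier, was higher in every L-GMP array (4.75, 4.53, 5.70 and 4.87) than in any GMP array (4.48, 4.47, 4.27 and 4.52). The margin between the groups was slight and L-GMP replicate C stood highest, and the difference of 0.52 (SE 0.22, adjusted p = 0.151 by limma) was not called. Without L-GMP replicate C the Slc25a2 difference was 0.28 (SE 0.12).

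Carriers of cofactors and nucleotides had 0 of 8 called, with differences of -0.25 to 0.24. They include Slc25a26, which imports S-adenosylmethionine (-0.25, SE 0.15), Slc25a32, which imports folate or flavin (-0.03, SE 0.24, but -0.32 without GMP replicate A), Slc25a51, which imports NAD (-0.02, SE 0.13), and Slc25a42, which carries coenzyme A (0.24, SE 0.12). Slc25a33 and Slc25a36 carry pyrimidine nucleotides, and differed by 0.01 (SE 0.11) and -0.20 (SE 0.20). The dimmest of the 3 Slc25a36 probe sets, however, fell by 0.65 (SE 0.13, adjusted p = 0.0109 over all probe sets), with values of 4.91 to 5.43 in L-GMPs and 5.61 to 5.90 in GMPs. The deposited values do not show which transcripts each probe set reads.

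Among relatives of the uncoupling proteins, Slc25a30 measured 6.99, 6.78, 6.86 and 7.37 in L-GMPs and 6.24, 6.77, 6.62 and 6.57 in GMPs. The groups did not overlap, with L-GMP replicate B and GMP replicate B nearly equal. The difference of 0.45 (SE 0.16, adjusted p = 0.0899 by limma) was not called in the deposited values, but was called higher after centring on the median (0.59, adjusted p = 0.0183) and after quantile normalization (0.51, adjusted p = 0.0399). The other 4 Slc25a30 probe sets differed by -0.10 to 0.29 and 0 were called. Slc25a14 and Slc25a27 differed by -0.02 (SE 0.10) and -0.31 (SE 0.16). Of the remaining 8 carriers 0 were called. Slc25a46, an outer-membrane protein of mitochondrial dynamics, measured 10.87, 10.86, 11.02 and 11.26 in L-GMPs and 11.07, 11.03, 11.15 and 11.05 in GMPs, with the GMP arrays inside the range of the L-GMP arrays. Slc25a45 differed by -0.36 (SE 0.12, adjusted p = 0.0879) and was called without L-GMP replicate A (-0.47, adjusted p = 0.0231), both by limma.

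**Figure D2:**
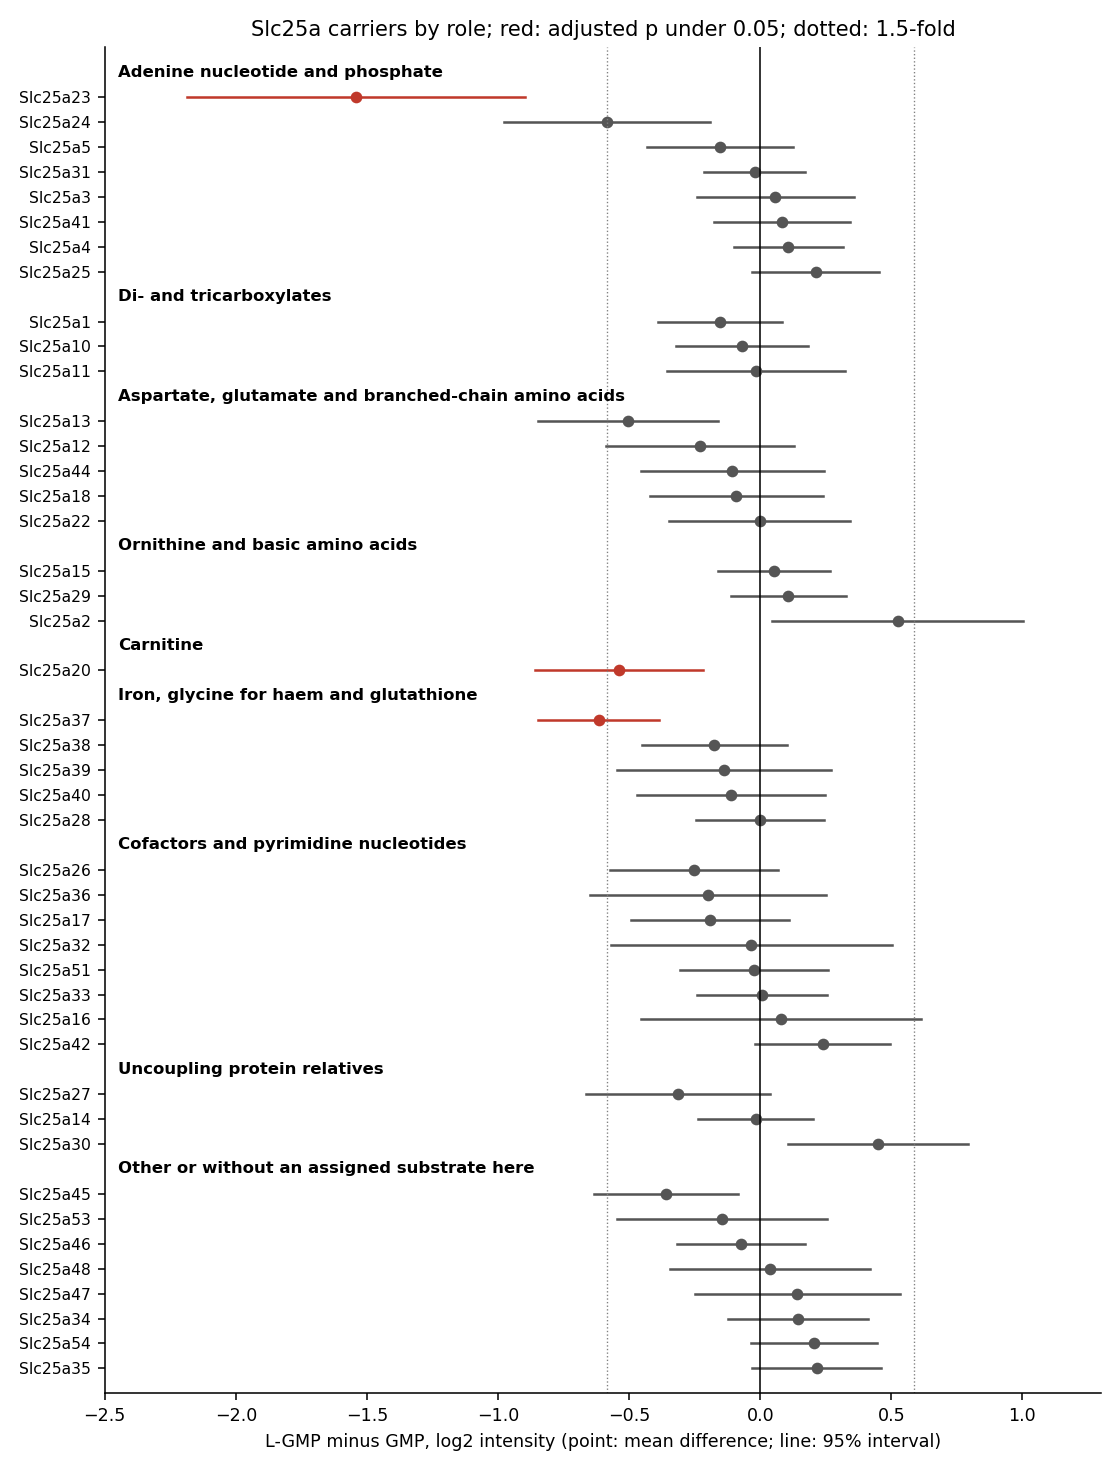
Difference between L-GMPs and GMPs (x axis, log2 intensity, L-GMP minus GMP) for the 44 carriers, grouped by role, with the mean difference as a point and its 95% interval as a line. Red marks the 3 carriers called lower, dotted lines mark 1.5-fold, and 41 carriers were not called.

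Most carriers could be bounded in the deposited values by their brightest probe set. The 95% interval of the difference lay within 1.5-fold for 32 of 44 carriers (72.7%), against 68.6% of all genes. The interval reached past 1.5-fold for the 3 called carriers and for 9 others, namely Slc25a2, Slc25a12, Slc25a13, Slc25a16, Slc25a24, Slc25a27, Slc25a30, Slc25a36 and Slc25a45, for which a difference of that size is within the interval. Dimmer probe sets of some further carriers also reached past 1.5-fold, as for Slc25a3 (interval 0.14 to 0.97) and Slc25a25 (0.02 to 0.79). The median difference of the carriers was -0.03, against 0.01 for all genes, but centring on the median turned it to 0.11, against 0.15 for all genes. In the deposited values the median size in either direction was 0.14, against 0.17. A difference of at least 1.5-fold was found in 3 carriers (6.82%), namely Slc25a23, Slc25a37 and Slc25a24, against 9.79% of all genes. The groups did not overlap in 5 carriers (11.4%), against 18.2% of all genes. These shares describe the carriers and were not tested against all genes.

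**Figure D3:**
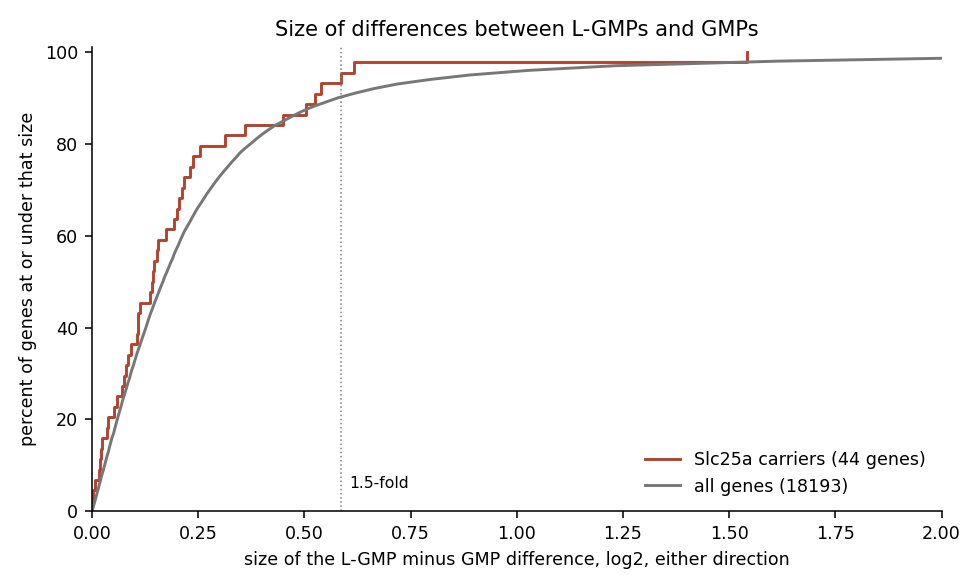
Cumulative percent of genes (y axis) by the size of the L-GMP minus GMP difference in either direction (x axis, log2), for the 44 carriers (red) and all 18193 genes (grey). The carrier line lies above the grey line over much of the range, with a median size of 0.14 for the carriers and 0.17 for all genes, and the dotted line marks 1.5-fold.

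Of the 44 carriers 23 had several probe sets and 21 had one. Over 93 carrier probe sets, 5 were called lower (5.38%) and 0 higher, against 12.2% of all single-symbol probe sets called in either direction and 7.94% called lower. In 8 of the 23 carriers the probe sets differed in sign, and in none of those 8 was a probe set called.

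**Figure D4:**
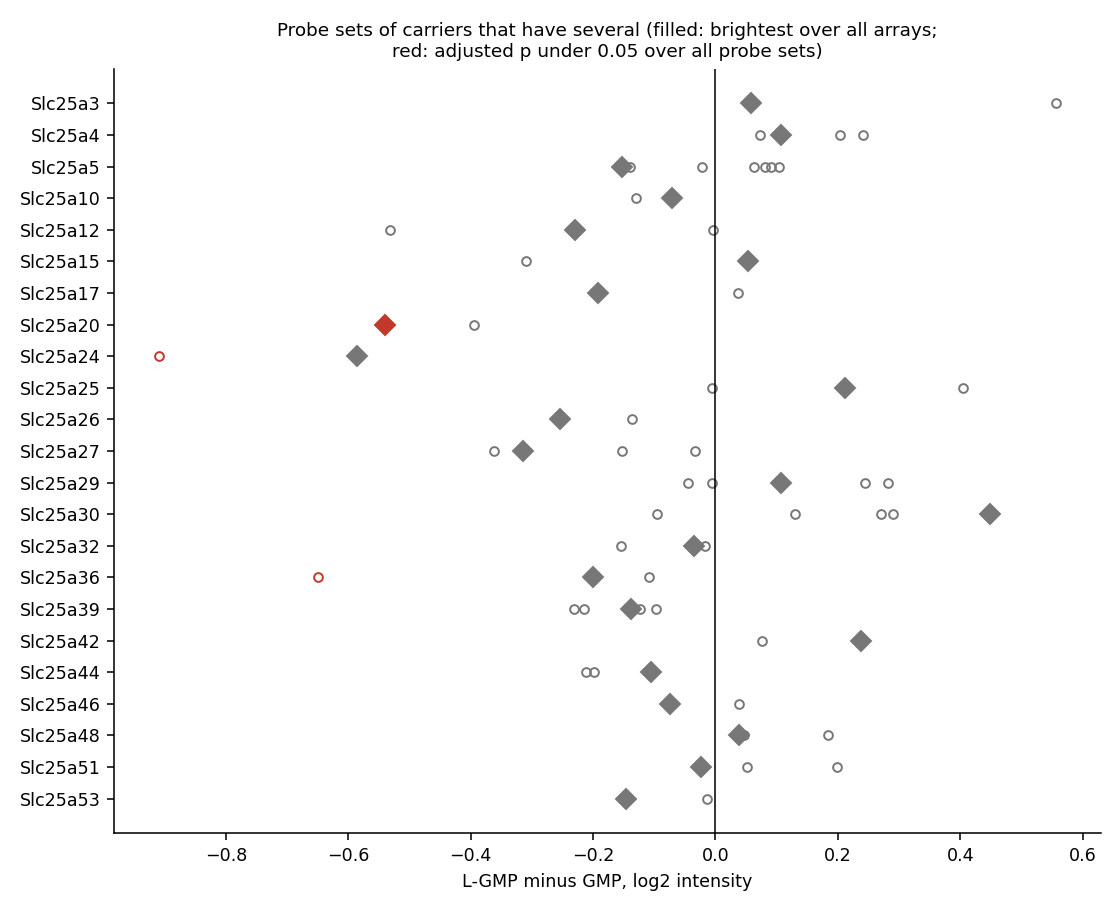
Difference between L-GMPs and GMPs (x axis, log2 intensity, L-GMP minus GMP) for each probe set of the 23 carriers that have several, with the brightest probe set filled. Red marks the probe sets called over all probe sets, at Slc25a20 (brightest), Slc25a24 and Slc25a36 (dimmer ones).

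Genes that work beside the carriers were counted in 10 lists. Of 111 measured genes 2 were called higher and 8 lower (9.01%, against 12.1% of all genes), with a median of -0.05. The direction depended on the scaling: after centring on the median 10 were called higher and 2 lower, with a median of 0.09, and after quantile normalization 3 higher and 9 lower. In the deposited values 0 genes were called in 4 lists: the 13 genes of the import route of carriers (TOM70 and TIM22), the 15 measured ATP synthase subunits, the 9 of the carnitine shuttle and fatty acid oxidation, and the 4 carriers under other symbols, Mtch1, Mtch2, Ucp1 and Ucp3. The outer-membrane channels Vdac1, Vdac2 and Vdac3 differed by -0.14 (SE 0.11), 0.02 (SE 0.12) and -0.14 (SE 0.11). The mitochondrial sodium-calcium exchanger Slc8b1 fell by 0.66 (SE 0.14, adjusted p = 0.011), with values of 5.36 to 5.99 in L-GMPs and 6.26 to 6.51 in GMPs, and lost its call after quantile normalization alone (adjusted p = 0.0502). Abcb10, a transporter of the haem pathway, fell by 0.53, and Ghitm, an inner-membrane protein, fell by 0.38. Among 13 measured genes of mitochondrial iron use, 2 were called lower: Cpox, an enzyme of haem synthesis, which fell by 0.67 (SE 0.16, adjusted p = 0.0192), and Nfs1, the cysteine desulphurase of iron-sulphur assembly, which fell by 0.64 (SE 0.18, adjusted p = 0.0438), all by limma.

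Of 12 enzymes of the malate-aspartate shuttle and citrate, Got1, the cytosolic aspartate transaminase, rose by 0.46 (SE 0.11, adjusted p = 0.0247 by limma), with 9.57 ± 0.16 in L-GMPs and 9.11 ± 0.12 in GMPs (SD, n = 4 each). Gpd2, the mitochondrial glycerophosphate dehydrogenase, fell by 0.39. Mthfd2l, a mitochondrial folate enzyme, fell by 0.54, and Prodh, proline dehydrogenase, fell by 0.40. Ppargc1b, a coactivator of mitochondrial biogenesis, rose by 0.44 (SE 0.12, adjusted p = 0.0371 by limma). These calls were not firm. Without single arrays the call was lost for Abcb10 (L-GMP A, C or D, or GMP B, C or D), Ghitm (L-GMP A, C or D, or GMP B, C or D), Cpox (L-GMP C, or GMP B or D) and Nfs1 (L-GMP A, B or C, or GMP B or D). The same held for Got1 (L-GMP A or D, or GMP B or C), Gpd2 (L-GMP A, C or D, or GMP B, C or D), Mthfd2l (L-GMP A, B or C, or GMP B, C or D), Ppargc1b (L-GMP A or D, or GMP B, C or D) and Prodh (all but L-GMP B). The adjusted p-values without those arrays were 0.0528 to 0.118. Centring on the median also ended the calls of Abcb10, Ghitm, Gpd2, Mthfd2l, Nfs1 and Prodh, quantile normalization ended those of Mthfd2l and Prodh, the trended robust prior ended that of Prodh, and averaging the probe sets of each gene ended those of Abcb10, Gpd2, Cpox and Nfs1. Leaving out L-GMP B together with GMP D ended those of Cpox, Ghitm, Gpd2, Mthfd2l, Nfs1, Ppargc1b and Prodh.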

How the data were processed

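The authors deposited intensities on a linear scale (3.54 to 29746.73, read from the values), made with RMA per the submitters' processing notes, with 1 column per array and 0 unused columns. RMA corrects background, normalizes between arrays and summarises probes; its version, a genome build, detection calls, scan dates and batches are not given in the sources used here. Per the labels, targets were made with a whole transcript kit, but the probe set names belong to a mouse array designed toward the 3' end, so the transcript part measured is unknown. Precision is limited by the number of arrays.

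Intensities were put on the log2 scale. Of 45101 probe sets, 64 controls were left out, and 34945 had 1 gene symbol, 932 several and 9160 none. Entrez identifiers matched 34741 to RefSeq (GRCm38.p6), with 0 symbols changed. A further probe set annotated to Slc25a37 and another gene was not used. Groups came from sample titles. The groups were compared with limma (3.58.1, R 4.3.3; lmFit and eBayes with group as the only term, 2-sided), adjusted over 18193 genes at 0.05, with 95% intervals from the moderated fit. In simulated data for this comparison over 18193 genes it recovered 82% of 100 genes changed by 1 and 99% of 100 changed by 2 on the log2 scale. Its calls numbered 194, of which 13 (6.7%) fell on unchanged genes. Changes under 1, which include the differences of all carriers but Slc25a23, were not simulated. The simulation changed fewer genes than the 2193 called in the data, and its noise was independent between arrays. Values on every array are given for each called carrier, up to 8 in each direction, and for the 3 brightest; others were added after their values were seen. Up to 3 called genes of each list of partner genes were named by size. Carriers, lists and rules were chosen with earlier results of these data known. The alternatives were 2 other scalings, 2 filters on dim genes (25% and 50%), averaging the probe sets of each gene, testing every probe set, array weights, a trended robust prior, a replicate block by letter, leaving out each array in turn, and leaving out both L-GMP B and GMP D. L-GMP B stood apart from the other L-GMPs on the second principal component, an axis of variation among all arrays. It lay at -57.5 there, against 0.07 to 27.8 for the others, and this axis held 12.6% of the variance. Of list entries, those not on the array under a single symbol were not analysed here. Figures were drawn with matplotlib.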

Additional observations from a re-analysis of the deposited data

Results flagged for a closer look

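In groups of 4 arrays, a value was singled out where its gap to the nearest of the others exceeded 0.829 of the group's range (Dixon's criterion). Of 88 groups of values 6 met it, where chance gives about 1 in 20. Slc25a3, the phosphate carrier, was 11.93 in L-GMP replicate D, against 11.36 to 11.42 in the other L-GMPs. Slc25a12 (aralar) was 8.45 in L-GMP replicate D, against 9.05 to 9.13 in the others. Slc25a24 was 8.24 in L-GMP replicate C, against 7.50 to 7.60, and its difference was called without that array. Slc25a32, the folate or flavin carrier, was low in L-GMP replicate C (7.97, against 8.34 to 8.39) and in GMP replicate A (7.46, against 8.47 to 8.66). Slc25a41 was 5.34 in L-GMP replicate B, against 5.03 to 5.06. Without the array singled out the difference was -0.08 for Slc25a3 (0.06 with all arrays), -0.07 for Slc25a12 (-0.23 with all), and 0.01 for Slc25a41 (0.08 with all). For Slc25a32 it was 0.06 without L-GMP replicate C and -0.32 without GMP replicate A (-0.03 with all). None of these was called with or without the array.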

How the results depend on the processing

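Slc25a23 and Slc25a37 were called lower under every alternative in which they were tested. Each had 1 probe set, so averaging probe sets or testing every probe set could not change its values. The number of carriers called higher was 1 (Slc25a30) after centring on the median and 1 after quantile normalization, and 0 with each single array left out. The number called lower was 5 with array weights, 5 among the 93 carrier probe sets when every probe set was tested, and 2 to 4 without single arrays. Over the whole array 4254 probe sets were called when each was tested, and 1411 to 2388 genes without single arrays, with 1411 without GMP replicate B and 1425 without GMP replicate D. Slc25a24 was called lower after quantile normalization (adjusted p = 0.0461), without the dimmest 50% of genes (0.0467), with the mean of its probe sets (0.0186), under the trended robust prior (0.0498) and with array weights (0.0249), all by limma. Slc25a13 was called lower without the dimmest 50% of genes (0.048) and with array weights (0.0393). Centring changed the sign of 12 carriers, none of them called in either fit. With the replicate letter as a block 1760 genes and 2 carriers were called; Slc25a20 had adjusted p = 0.0752 by limma, and the calls of Abcb10, Ghitm, Got1, Gpd2, Mthfd2l and Prodh were lost. Whether the letters share more than a label is unknown. The deviations of same-lettered arrays from their group means correlated at -0.07 to 0.10. Low correlations cannot show that such arrays had no day or preparation in common. With both L-GMP B and GMP D left out 1557 genes and 2 carriers were called. Causes were not tested.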
